A study of Mus musculus with 6 samples.

Results

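Transcript levels of 10 genes that coat, regulate and crosslink actin filaments were examined in primary mouse mesangial cells with and without TGF-β1. The genes were the tropomyosins Tpm1, Tpm2, Tpm3 and Tpm4, the caldesmon gene Cald1, the calponins Cnn2 and Cnn3, the alpha-actinins Actn1 and Actn4, and the filamin gene Flna. They were chosen by symbol, with earlier results of these data known, and each of the 10 had exactly 1 row among the 19730 rows of the RNA-Seq table. Mesangial cells hold the capillary loops of the glomerulus together and can contract. All cultures, treated or not, grew in high glucose (25.5 mM) with 20% foetal bovine serum, and the labels name no genotype, strain or animal age. The Control group had 3 libraries of cells without the cytokine, and the TGF-β1 group had 3 libraries of cells given 10 ng/ml for 72 h, so the design gives 1 dose, 1 time and 1 glucose level. Nothing in the labels says that the libraries of a group came from separate animals or cultures, so the p-values below measure the spread between these libraries, which may be technical.

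Actin filaments in contractile cells are bundled into stress fibres. Tropomyosins are coiled-coil dimers that lie end to end along the filament and decide which other proteins, myosin II among them, can reach it. Caldesmon and the calponins bind actin and restrain the myosin motor, alpha-actinin joins antiparallel filaments at dense bodies and focal adhesions, and filamin A crosslinks filaments into orthogonal networks and ties them to integrins. Stress fibre genes are classic targets of serum response factor, which binds the CArG box, and TEAD factors bind the sequence GGAATG. TGF-β1 is known for turning mesangial cells and fibroblasts towards a myofibroblast state rich in stress fibres.

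Start-site sequences were read from RefSeq (GRCm38.p6), where all 10 genes matched and had 12 annotated promoters between them, since Cald1 and Tpm3 have 2 each. Each promoter spans 250 bases before and 50 bases after a start. The CArG box (searched on both strands) was found in 1 of the 12, that of Cnn2, against 1.63% of 32851 mouse promoters. GGAATG or its reverse complement CATTCC was found in 4 of the 12, against 14.7% of all promoters. The matching windows of 30 bases are shown because these are the members whose proximal promoter holds letters of a factor named above. They run 5′ to 3′ on the strand of the gene, with the match in capitals.
Cnn2: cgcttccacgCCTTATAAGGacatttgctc
Tpm1: tggctgtcctaaGGAATGcggtcgcccccc
Cald1: gagcatgcctagGGAATGacaggcatctgc
Flna: ggcgttgtggggCATTCCaacgggaggggc
Actn4: tgaatgggaacaCATTCCaccccgaaacag
The windows lie at chr10:79988534-79988563 on the plus strand for Cnn2, at chr9:67049252-67049281 on the minus strand for Tpm1 and at chr6:34598339-34598368 on the plus strand for Cald1. Those of Flna and Actn4 lie on the minus strand, at chrX:74246663-74246692 and at chr7:28962531-28962560. The matches start 56 bases before the start site in Cnn2 and Tpm1, and 146 to 216 bases before it in the other 3. A match is a description of the letters and not evidence that a factor binds there. The 5 genes with a match had changes from 0.46 to 1.88 on the log2 scale, and among the 5 without one Actn1 changed about as much as Tpm1, and Tpm3 about as little as Actn4.

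Levels are FPKM, fragments scaled to transcript length in kilobases and to the mapped fragments of the library, which allows genes to be compared per length. Depth, recovered from the steps between the lowest values, was 10.1 to 11.1 M mapped fragments per library, lowest in TGF-β1 replicate 2. That library stood apart from its group in some genes, Actn4 among them. Values without it are given below for Actn4, Cnn2, Csrp2 and Pdlim2 only. Pearson's r of log2(FPKM + 1) across genes was 0.876 to 0.940 between libraries of a group and 0.818 to 0.853 between groups, a description only, since genes are not independent. The cells were checked against marker genes. Of 6 mesangial markers, Vim (1922 to 2376 FPKM in Control) and Pdgfrb (32.0 to 41.1 FPKM) were well expressed, Gata3 was at 0.756 to 2.42 FPKM, and Itga8, Des and Thy1 stayed under 1 FPKM in every library, so the label rests on Vim and Pdgfrb in these data. The 5 endothelial markers stayed under 1 FPKM throughout, and so did the podocyte gene Nphs1 and the pan-leukocyte gene Ptprc. The tubular markers, 4 of 5 of them in the table, summed to 125 to 160 FPKM in Control and to 6.16 to 7.40 FPKM with TGF-β1, most of it from Cdh16, while the epithelial cadherin Cdh1 was at most 0.123 FPKM. The 4 podocyte markers used summed to 16.2 to 19.3 FPKM and to 7.08 to 7.66 FPKM, and the macrophage markers to 8.19 to 9.58 FPKM and to 2.26 to 3.24 FPKM. These 3 sums moved with the treatment. The mesangial sum, most of it from Vim, moved too, from 1964 to 2408 FPKM in Control to 3280 to 3628 FPKM with TGF-β1. Pdgfrb was at 28.4 to 29.9 FPKM with TGF-β1, below its Control libraries. The part of these changes in the results below was not tested. In bulk RNA, fewer cells of a kind and less RNA per cell cannot be told apart.

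All 10 genes were upregulated by TGF-β1 (limma on log2(FPKM + 1), Benjamini-Hochberg adjusted p under 0.05 over all 11898 tested rows), against 24.5% of all tested rows called higher and 48.1% called in either direction. In all 10, every TGF-β1 library lay above every Control library, which was so in 29.9% of tested rows (the reverse, without overlap, in 29.5%). The median change of the 10 was 1.24 on the log2 scale, against -0.02 over all tested rows, and 7 of the 10 rose at least 2-fold (log2 change of 1 or more), against 6.56% of tested rows. Because the set was chosen with earlier results of these data known, these contrasts with all rows are a description only. The changes ran from 0.40 for Tpm3 to 1.88 for Tpm1, and the gap between the lowest TGF-β1 library and the highest Control library ranged from 1.08-fold in Actn4 to 3.44-fold in Actn1. The calls of Tpm3 and Actn4 were lost under some scalings between libraries, as given beside each gene. The other 8 genes were called in all 18 refits tried, and within replicates 1 and 3 alone all 10 were called.

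**Figure D1:**
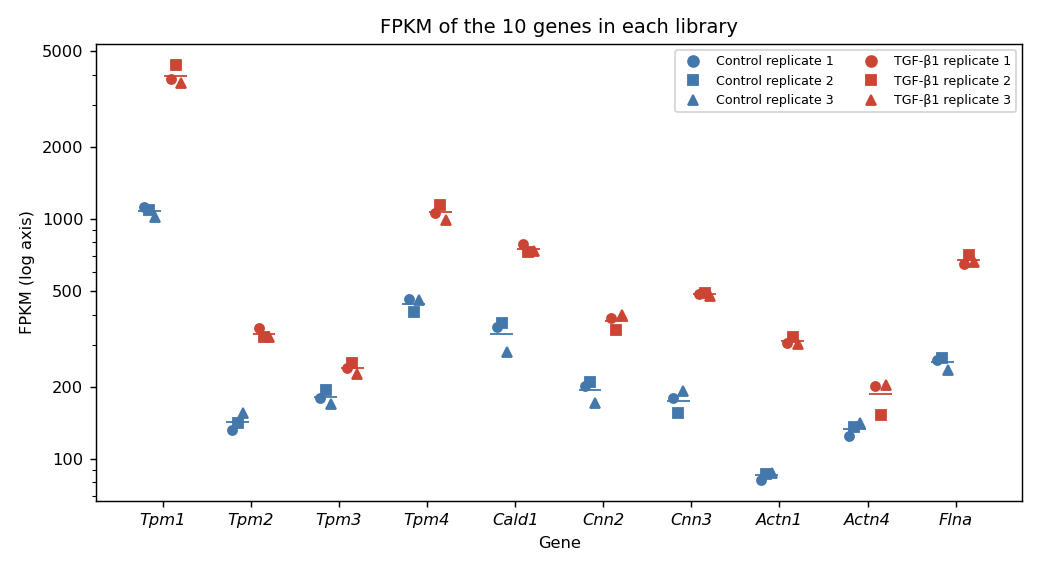
FPKM (log axis) of the 10 genes in the 3 Control libraries (blue) and the 3 TGF-β1 libraries (red), with a marker shape for each replicate number and a horizontal line at each group mean. The groups are apart for every gene, widely for Tpm1 and Actn1 and narrowly for Tpm3 and Actn4, whose TGF-β1 replicate 2 value of 153 FPKM lies close to the Control libraries.

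Tpm1 (mm9 chromosome 9, 66870397 to 66897213, minus strand) was the most abundant of the 10 in both groups. It encodes the alpha-tropomyosin of muscle and stress fibres. It was at 1122, 1092 and 1017 FPKM in Control replicates 1 to 3 and at 3824, 4401 and 3681 FPKM in TGF-β1 replicates 1 to 3. The lowest treated library was thus 3.28 times the highest Control library. The mean rose 3.68-fold, from 1077 ± 54.2 to 3969 ± 381 FPKM (SD, n = 3), up by 1.88 on the log2 scale (SE 0.117, adjusted p 8.09e-05 by limma). By mean level Tpm1 moved from place 131 to place 23 among the 11898 tested rows.

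Tpm2 (chromosome 4, 43527583 to 43536637, minus strand), which encodes beta-tropomyosin, was at 133, 142 and 155 FPKM in Control and at 351, 324 and 323 FPKM with TGF-β1. Its treated libraries were all at least 2.08 times the highest Control library, and its log2 change was 1.21 (SE 0.09, limma adjusted p 1.59e-04). Tpm4 (chromosome 8, 74658874 to 74677041, plus strand), a tropomyosin with short cytoskeletal products in non-muscle cells, was at 464, 409 and 460 FPKM in Control and at 1063, 1144 and 995 FPKM with TGF-β1, up by 1.26 on the log2 scale (SE 0.101, adjusted p 2.02e-04 by limma). The changes of Tpm2 and Tpm4 were alike in size, 2.32-fold and 2.40-fold between means.

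Tpm3 (chromosome 3, 89876571 to 89904824, plus strand), which gives the slow-muscle tropomyosin and cytoskeletal forms, changed least. Its values were 179, 194 and 170 FPKM in Control and 239, 252 and 226 FPKM with TGF-β1. The groups did not overlap, but the lowest treated library was only 1.16 times the highest Control library. The log2 change was 0.40 (SE 0.0879, limma adjusted p 0.0110). With the libraries brought to a common sum over rows of at most 20000 FPKM it was 0.34 (limma adjusted p 0.0565) and after quantile normalization 0.14 (limma adjusted p 0.254), so its call depends on the scaling. A retroposed copy, Tpm3-rs7, was listed at 0.664 to 2.07 FPKM over the 6 libraries and was not called (limma adjusted p 0.507), and how reads shared with it were assigned is not stated.

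The make-up of the tropomyosin pool was compared within each library, where a share does not depend on the scaling of the library. Summed FPKM of the 4 genes went from 1846 ± 48.8 to 5608 ± 462 (SD, n = 3), or 3.04-fold. Tpm1 made up 59.1, 59.4 and 56.4% of the sum in Control and 69.8, 71.9 and 70.4% with TGF-β1. All 3 treated libraries lay above all 3 Control libraries, a difference of 12.4 percentage points. The share of Tpm3 was 9.45, 10.6 and 9.41% in Control against 4.37, 4.11 and 4.33% with TGF-β1, lower in every treated library although the gene itself was called higher. The share of Tpm4 went from 24.1 ± 1.67 to 19.0 ± 0.357% and that of Tpm2 from 7.77 ± 0.811 to 5.96 ± 0.585% (SD, n = 3), also without overlap. For each of these 4 shares p was 0.1 in a two-sided exact permutation test, the smallest value that 3 libraries against 3 allow, and 0.117 after adjustment over the 7 shares compared, so no share could pass 0.05. The row of Tpm4 names a transcript of only 359 nt, which leaves the scale of its FPKM uncertain against the others. Without Tpm4, the Tpm1 share of the other 3 genes was 76.8 ± 1.27% (SD, n = 3) in Control libraries against 87.4 ± 0.944% in treated ones.

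**Figure D2:**
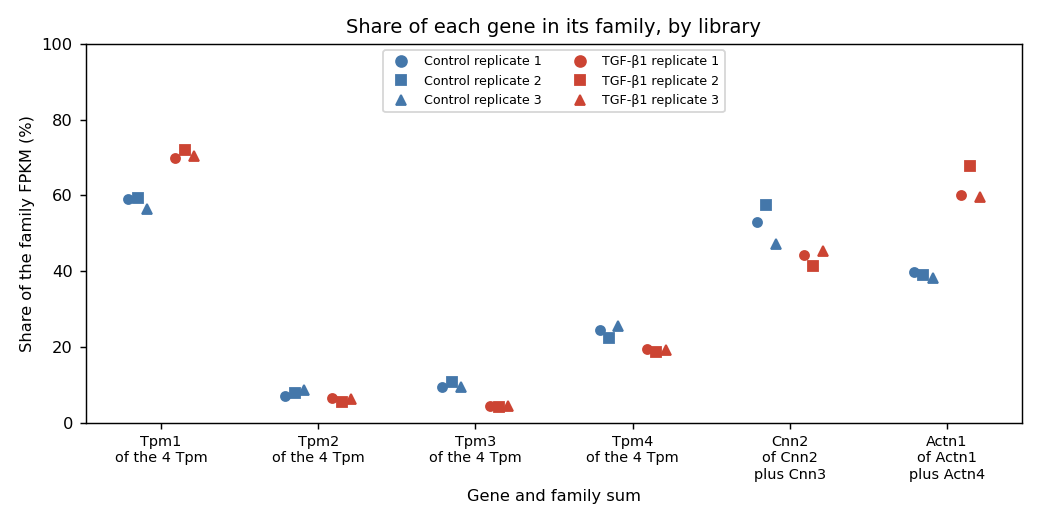
Share (%) of each gene in the summed FPKM of its family, in the 3 Control libraries (blue) and the 3 TGF-β1 libraries (red). The shares of Tpm1 and Actn1 are higher and those of Tpm2, Tpm3, Tpm4 and Cnn2 lower in all 3 treated libraries.

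Actin, the filament that tropomyosin covers, was higher as well. The summed FPKM of the 5 actin genes in the table (Actb, Actg1, Acta2, Actg2 and Actc1) went from 4080 ± 300.4 to 10304 ± 891 (SD, n = 3), or 2.53-fold. Tropomyosin FPKM per 100 actin FPKM was 46.5, 48.6 and 41.2 in Control against 56.6, 54.1 and 52.7 with TGF-β1. Each treated library lay above each Control library, with a ratio of means of 1.20 and an exact permutation p of 0.1 (two-sided), again the smallest this design allows. This ratio was chosen after the values were seen.

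Cald1 (chromosome 6, 34548500 to 34725473, plus strand) encodes caldesmon, an actin- and myosin-binding protein that calmodulin releases. It was at 355, 368 and 279 FPKM in Control and at 785, 732 and 740 FPKM with TGF-β1. Control replicate 3 was the lowest of its group, and the treated libraries all lay at least 1.99 times above the highest Control library. The log2 change was 1.18 (SE 0.126, limma adjusted p 6.15e-04). Cald1 overlaps 4 genes annotated on the opposite strand, and whether the FPKM estimate used strand is not stated.

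The calponins Cnn2 and Cnn3, the non-smooth-muscle and acidic forms, were expressed at about the same level in Control and at different levels with TGF-β1. Cnn2 (chromosome 10, 79451329 to 79458807, plus strand) was at 201, 210 and 171 FPKM in Control and at 388, 346 and 397 FPKM with TGF-β1, up by 0.96 on the log2 scale (SE 0.11, adjusted p 8.15e-04 by limma). Without TGF-β1 replicate 2 the change of Cnn2 was 1.02 (limma adjusted p 0.0022). Cnn3 (chromosome 3, 121129459 to 121161123, plus strand) was at 180, 156 and 191 FPKM in Control and at 489, 493 and 480 FPKM with TGF-β1, up by 1.47 on the log2 scale (SE 0.0986, adjusted p 1.08e-04 by limma). The treated libraries of Cnn3 differed by a coefficient of variation of only 1.39%, the tightest group among the 10 genes. Cnn3 has a single annotated transcript, so its fragments could be estimated, at 3102 to 3720 per Control library and 8998 to 9673 per TGF-β1 library. Within the pair, the share of Cnn2 was 52.9, 57.4 and 47.2% in Control against 44.2, 41.2 and 45.3% with TGF-β1. The groups did not overlap (two-sided exact permutation p = 0.1, 0.117 adjusted), but replicate 3 of Control and replicate 3 of TGF-β1 lay close together.

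The alpha-actinins Actn1 and Actn4, both non-muscle crosslinkers of stress fibres and adhesions, had changes of unequal size. Actn1 (chromosome 12, 81268529 to 81361358, minus strand) was at 81.8, 87.0 and 87.8 FPKM in Control and at 305, 322 and 302 FPKM with TGF-β1. It was the least abundant of the 10 genes in Control and had the smallest adjusted p of the 10, with a rise of 1.84 on the log2 scale (SE 0.0738, adjusted p 1.82e-05 by limma). The change of Actn1 was 3.62-fold between means.

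Actn4 (chromosome 7, 29678267 to 29747359, minus strand), the form whose mutations cause familial glomerulosclerosis, was at 124, 136 and 142 FPKM in Control and at 202, 153 and 204 FPKM with TGF-β1. TGF-β1 replicate 2 stood only just above the highest Control library, at 1.08 times its value. The log2 change was 0.46 (SE 0.134, limma adjusted p 0.0309). Without TGF-β1 replicate 2 it was 0.60 (limma adjusted p 0.0054), and within replicates 1 and 3 it was 0.61 (limma adjusted p 0.0176). The call was lost without Control replicate 1 (0.41), Control replicate 2 (0.47), TGF-β1 replicate 1 (0.39) or TGF-β1 replicate 3 (0.39), with limma adjusted p from 0.0733 to 0.103, and with upper-quartile scaling (0.40, limma adjusted p 0.0501) or quantile normalization (0.24, limma adjusted p 0.195).

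Actn1 made up 39.7, 39.0 and 38.2% of the FPKM of the pair in Control and 60.1, 67.8 and 59.7% with TGF-β1. The more abundant alpha-actinin was thus Actn4 in each Control library and Actn1 in each TGF-β1 library, a difference of 23.6 percentage points (two-sided exact permutation p = 0.1, 0.117 adjusted). Leaving out any 1 library gave 20.9 to 25.0 points.

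Flna (chromosome X, 71468800 to 71495159, minus strand), which encodes filamin A, was at 258, 265 and 236 FPKM in Control and at 648, 712 and 662 FPKM with TGF-β1. Every treated library was at least 2.45 times the highest Control library, with a rise of 1.41 on the log2 scale (SE 0.088, adjusted p 8.23e-05 by limma).

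The order of the 10 levels was set beside their spread. In Control it was Tpm1, Tpm4, Cald1, Flna, Cnn2, Tpm3, Cnn3, Tpm2, Actn4 and Actn1. The ranges of Cnn2 and Tpm3 overlapped, as did those of Tpm3 and Cnn3 and of Tpm2 and Actn4, so these neighbours did not differ beyond their spread. With TGF-β1 the first 4 places were the same, followed by Cnn3, Cnn2, Tpm2, Actn1, Tpm3 and Actn4, with only Cnn2 and Tpm2 overlapping. Tpm3 moved from place 6 to place 9 within the set, and Actn1 moved from place 10 to place 8. The genes lie on 9 chromosomes, Tpm3 and Cnn3 both on chromosome 3. Coefficients of variation within a group were 3.77 to 14.4% in Control and 1.39 to 15.6% with TGF-β1, the highest in Cald1 in Control and in Actn4 with TGF-β1. GC content of the transcripts, known for 8 of the 10 rows, was lowest in Cald1 (43.6%) and highest in Actn4 (55.4%).

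A limit applies to genes with several transcripts. Each row names 1 transcript, and it is not stated whether its FPKM covers that transcript or the gene. Tpm1, Tpm3 and Cald1 have 21, 18 and 17 annotated transcripts and Flna has 15, and the rows of Tpm2, Tpm4 and Flna name transcripts that are not annotated as protein coding. Muscle and cytoskeletal tropomyosins come from alternative exons of the same genes. If a row covers the gene, a change of the isoform would not be seen in these values. If it covers only the named transcript, such a change could itself raise or lower the row. Actn4 overlaps Capn12 and Tpm4 overlaps 2 long non-coding RNA genes, all on the opposite strand.

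The closest relatives of the members were examined next, with counts given beside the 24.5% of all tested rows called higher. Of 7 relatives, 4 were tested, 3 were called higher and 0 lower, with a median change of 1.63, above the 1.24 of the members. Cnn1, the smooth-muscle calponin, rose most, from 16.6, 14.9 and 17.1 FPKM to 157, 147 and 156 FPKM (log2 change 3.17, SE 0.0812, limma adjusted p 4.68e-06). Its level with TGF-β1 was still below that of Cnn2 and Cnn3. Tagln and Tagln2, the transgelins with a calponin fold, rose from 512 ± 59.7 to 1756 ± 137 FPKM and from 206 ± 9.40 to 575 ± 57.6 FPKM (SD, n = 3), with log2 changes of 1.78 and 1.48 (limma adjusted p 1.20e-04 and 1.13e-04). Tagln overlaps Pcsk7 on the opposite strand. Flnc, the muscle filamin, was at 20.8 to 26.7 FPKM in Control and 21.4 to 22.5 FPKM with TGF-β1 and was not called (log2 change -0.13, limma adjusted p 0.337). The striated-muscle alpha-actinins Actn2 and Actn3 and the neuronal Tagln3 lay under the filter, at no more than 1.61 FPKM in any library, and none was called without the filter (limma adjusted p 0.118, 0.973 and 0.535).

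**Figure D3:**
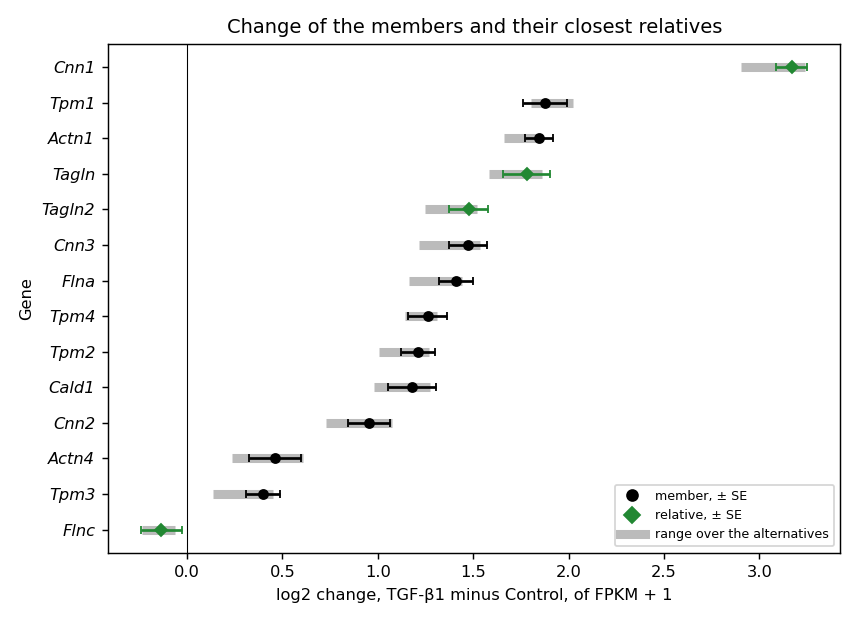
Change on the log2(FPKM + 1) scale, TGF-β1 minus Control, of the 10 members (black circles) and their 4 tested relatives (green diamonds) with SE, and in grey the range over 18 alternative fits. Cnn1 at 3.17 exceeds all members, Tpm3 and Actn4 lie below 0.5, and only Flnc is below 0.

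Other genes of the actin cytoskeleton moved less uniformly. Of the tropomodulins and leiomodins, which cap or nucleate tropomyosin-coated filaments, 4 of 7 were tested, with 2 called higher and 1 lower. Lmod1 rose from 4.29 ± 0.447 to 19.0 ± 1.19 FPKM (SD, n = 3, log2 change 1.92, limma adjusted p 4.13e-05), and Tmod1 was lower (log2 change -0.50, limma adjusted p 0.0327), a call that survived the loss of Control replicate 3 but of no other single library, and that was lost with no filter on low values and within replicates 1 and 3. Of 26 other crosslinkers and bundlers, 22 were tested, 6 were called higher and 7 lower, with a median change of 0.09. Coro1c, an actin-bundling coronin, rose by 1.17 on the log2 scale (limma adjusted p 0.0028) and Ablim1, an actin-binding LIM protein, fell by 1.86 (limma adjusted p 1.59e-04). The shares called, 27.3% higher and 31.8% lower, stood near the 24.5% and 23.6% of all tested rows.

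Stress fibre and adhesion partners, which are LIM proteins and other adaptors of stress fibres and adhesions, had 21 of 24 genes tested, with 14 called higher and 5 lower and a median of 0.79. That was 66.7% higher, against 24.5% of all tested rows, and 23.8% lower, near the 23.6% of all tested rows. Csrp2, a LIM protein that binds alpha-actinin, was at 148, 113 and 181 FPKM in Control and at 742, 350 and 736 FPKM with TGF-β1 (log2 change 1.98, limma adjusted p 0.0038), and without TGF-β1 replicate 2 its change was 2.34 (limma adjusted p 0.0012). Pdlim2 fell from 97.9, 73.6 and 84.9 to 32.9, 5.85 and 37.3 FPKM (log2 change -2.05, limma adjusted p 0.0399), and its call was lost without any 1 of the 3 Control libraries and with no filter on low values (limma adjusted p 0.0639). Without TGF-β1 replicate 2 its change was -1.25 (limma adjusted p 0.0024). In Csrp2 and Pdlim2 replicate 2 was the low library of both groups, Control and TGF-β1. In Actn4 replicate 2 was the low library with TGF-β1 but not in Control. With replicate 2 as a term in the fit, limma adjusted p was 4.21e-04 for Csrp2, 0.0123 for Pdlim2 and 0.0260 for Actn4. Any shared source was not tested.

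Among actins and myosin II genes, 15 of 19 were tested, with 9 called higher and 2 lower and a median of 0.73. The shares were 60.0% and 13.3%, beside 24.5% and 23.6% of all tested rows. Actg2, the enteric smooth-muscle actin, rose from 7.39 ± 1.54 to 33.2 ± 1.80 FPKM (SD, n = 3, log2 change 2.04, limma adjusted p 1.13e-04). Mylk, the kinase that activates myosin II by phosphorylating its light chain, went the other way, from 24.5, 28.2 and 26.6 to 2.26, 2.60 and 2.18 FPKM (log2 change -3.04, limma adjusted p 8.14e-06). Its row also names only 1 transcript of a gene with several products. Among actin turnover genes, all 23 in the table were tested, with 16 called higher (69.6%, beside 24.5% of all tested rows) and 0 lower (beside 23.6%), and a median of 0.55. Tmsb4x, which sequesters actin monomers, rose most, from 740 ± 162 to 4042 ± 192 FPKM (SD, n = 3, log2 change 2.47, limma adjusted p 1.45e-04). Troponins, which sit on tropomyosin in striated muscle, were 4 of the 6 muscle markers in the table, and of these 4, all tested, 2 were called higher and 1 lower. They were singled out after their values were seen. Tnnt2 rose from 5.33, 3.42 and 6.48 to 151, 182 and 156 FPKM, and Tnni1 from 1.79 ± 0.135 to 8.52 ± 0.643 FPKM (SD, n = 3), with log2 changes of 4.78 and 1.77 (limma adjusted p 2.15e-05 and 5.46e-05). Tnnt3 was lower, at 13.2 to 17.3 FPKM in Control and 2.15 to 3.58 FPKM with TGF-β1 (log2 change -2.03, limma adjusted p 2.31e-04), and Tnnc1 was at 8.93 to 13.3 and 8.01 to 11.4 FPKM and was not called (limma adjusted p 0.313). The muscle-defining genes Myog and Ckm stayed under 1 FPKM in every library.

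**Figure D4:**
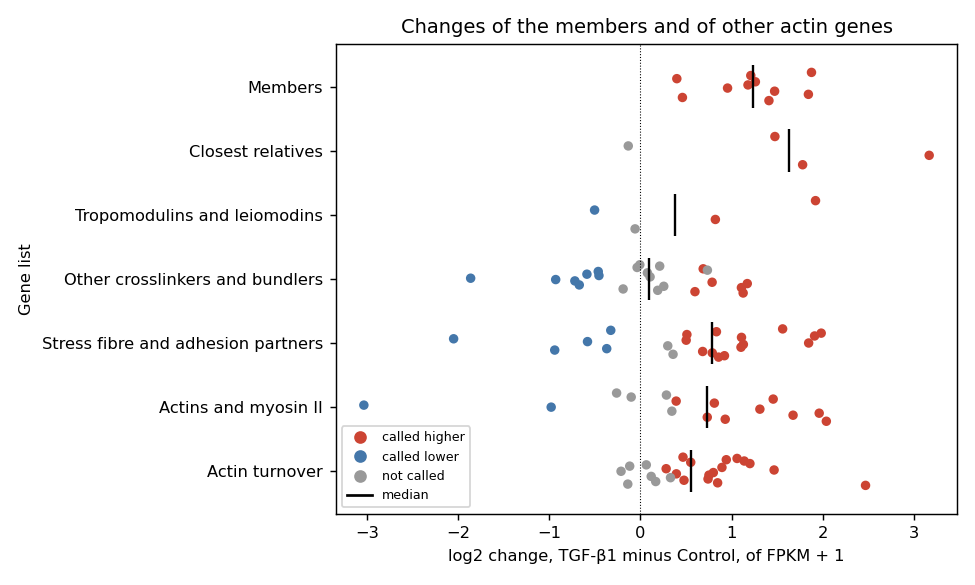
Change on the log2(FPKM + 1) scale of each tested gene (points, red called higher, blue called lower, grey not called) in the members and 6 lists of related actin genes, with a black line at each median. The 10 members all lie above 0 with a median of 1.24. The closest relatives have a higher median, 1.63. The medians of the other lists are 0.79 for stress fibre and adhesion partners, 0.73 for actins and myosin II and 0.55 for actin turnover. They are 0.38 for tropomodulins and leiomodins and 0.09 for the other crosslinkers and bundlers, which spread to both sides.

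The tested rows most like each member were found by the root mean square difference of their centred log2 profiles over the 6 libraries. With only 2 groups, such a profile follows mainly the size of the change, which was 1.25 for Plod2 and 1.87 for Col8a1, close to Tpm4 and Tpm1. Whether near rows share regulation was not tested. Tpm4 had the nearest neighbour, Plod2, a collagen lysyl hydroxylase (0.0139 log2 units), and Tpm1 was nearest to the collagen gene Col8a1 (0.0355). Tpm2 was nearest to Mmp14 (0.0423), Flna to Ldha (0.031), Actn1 to Cttnbp2nl (0.0351), and Tpm3 to Arpp19 (0.0213). Cald1 was nearest to Sec13 (0.0384), Cnn2 to Arhgap5 (0.0467), Actn4 to Wfs1 (0.0482) and Cnn3 to Pgam1 (0.0504). Among the members themselves, Tpm1 and Actn1 were the closest pair, at 0.087 log2 units.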

How the data were processed

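The deposited values are FPKM, which the authors estimated with Cufflinks after removing low-quality reads and mapping the rest to mm9 (TopHat2 2.0.11 per the submitters' processing notes), with no scaling between libraries stated. The study's count model (DESeq) could not be applied to FPKM. Coordinates of genes are mm9 (GENCODE M1), where 19699 of 19730 rows matched by transcript. Promoters are RefSeq, GRCm38.p6.

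The 11898 rows averaging 1 FPKM or more over the libraries were tested with limma 3.58.1 in R 4.3.3 on log2(FPKM + 1), with a mean-variance trend, two-sided, Benjamini-Hochberg adjusted. This scale understates changes of low genes. The script was run on simulated independent normal values with few changed rows and no replicate effect. That setting differs from these data, so the run checks the code and not the calls. Family shares were compared by exact permutation over libraries. Depth came from 682 to 743 values per library of single-transcript genes under 0.4 FPKM, of which at least 99.6% were whole fragments within 0.1, at an assumed fragment length of 200 nt. In genes with several transcripts only 47.9 to 52.9% were whole. Python 3.11.15 and scipy 1.17.1 were used.

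The members and lists were chosen with earlier results of these data known. Named genes were all members and their closest relatives, the largest called change in each direction of each list, and the nearest profile of each member. 1 relative, 1 of the 7 family shares tested and 1 marker are not reported here. Alternatives were 2 pseudocounts, 2 filters, 4 scalings, no trend, the replicate number or replicate 2 as a term, replicates 1 and 3 alone, and leaving out each library.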

Additional observations from a re-analysis of the deposited data

How the results depend on the processing

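In 18 refits no called change of a named member, relative or list gene changed sign, and no difference in share did in its own alternatives. Of these genes, Tpm3, Actn4, Tmod1 and Pdlim2 lost their call in at least 1 refit. The members called numbered 10, except 9 with upper-quartile scaling or a common sum, 8 with quantile normalization, and 9 to 10 with 1 library left out, and the calls lost were those of Tpm3 and Actn4. Rows called numbered 5721, 4195 within replicates 1 and 3, and 4419 to 5446 with 1 library left out. Of the tropomodulins and leiomodins, 0 were called lower with no filter or in replicates 1 and 3, and 0 to 1 with 1 library left out. Of the other crosslinkers and bundlers, 4 were called lower with a mean of at least 5 FPKM, with quantile normalization or in replicates 1 and 3, and 4 to 6 with 1 library left out. Of the stress fibre and adhesion partners, 3 were called lower in replicates 1 and 3, and 3 to 4 with 1 library left out, and of the actin turnover genes 0 to 1. Fewer rows or libraries enter several of these fits, and the cause was otherwise not tested. Leaving Tpm4 out of the tropomyosin sum, chosen after seeing the data, gave differences in share of 10.5 points for Tpm1, -2.89 for Tpm2 and -7.64 for Tpm3. Deviations from the group means correlated at r = 0.0921, 0.232 and 0.0853 between libraries of the same number, for numbers 1, 2 and 3. Between libraries of different numbers r ran from -0.194 (Control replicate 2 with TGF-β1 replicate 3) to 0.117 (Control replicate 1 with TGF-β1 replicate 3). Whether libraries of the same number belong together is not stated and was not tested. With replicate 2 as a term 5947 rows were called. With the replicate block 5391 rows and all 10 members were called. Whether a row holds a gene or a transcript limits the levels of genes with several transcripts.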
